A study of Mus musculus with 10 samples.

Results

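H4K20me1 peaks that sit at or close to the start of a protein-coding gene were taken from a CUT&RUN study of cultured mouse muscle stem cells. A peak belonged to this set if it lay on an autosome, was shorter than 50000 bases, was listed with a protein-coding gene, had its centre within 2000 bases of that gene's start and had a deposited fraction of 0.5 or more of its length inside the gene. The rule used position and annotation and no measured level, although the peaks themselves had been called from signal. It found 957 of the 44925 peaks, or 957 of the 41008 autosomal ones, and each of the 957 belonged to a different gene. Of these, 955 had a mean score over 50 across the 4 libraries and entered the tests, together with 40902 autosomal peaks in all.

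In CUT&RUN an antibody guides a nuclease to the chromatin it recognises, and the DNA fragments released there are sequenced. The antibodies bound histone H4 carrying 1 methyl group on lysine 20 (H4K20me1) or RNA polymerase II phosphorylated on serine 2 of its tail (Pol II S2P), with 2 libraries for each genotype and antibody. Ctrl cells carried Pax7CreERT and wild-type Kmt5b (in the labels Pax7CreERT/Suv4-20h1WT). sKO cells carried Pax7CreERT and the inactivated gene (Pax7CreERT/Suv4-20h1KO), where Kmt5b is another name of Suv4-20h1. Per the study's methods, both came from mice on a C57BL/6 background that were given tamoxifen at 8 to 12 weeks of age, which starts recombination by Cre in cells that express Pax7, and cells were purified from limb and trunk muscle and grown on Matrigel with LIF and bFGF. Deletion therefore depends on Cre activity in Pax7-expressing cells, and the share of cells that recombined was not analysed here. Nothing in the labels says which animals a library came from, so p-values measure the spread between these libraries only.

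H4K20me1 is deposited by the enzyme KMT5A and is the substrate from which KMT5B makes the dimethylated form, H4K20me2. The monomethylated form varies through the cell cycle and is best known as a broad mark over the bodies of transcribed genes. Pol II S2P marks polymerase that has left the promoter region and is elongating, so gene starts are the place where the territory of the broad mark meets the promoter.

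Cell identity was read from Pol II S2P. Peaks were listed with 7 of 10 satellite cell and myoblast genes, among them Pax7, Myod1, Des and Chrna1. Myf5, Cdh15 and Cxcr4 of that list had no peak. The summed scores of the list lay between 6449 and 9316 in the 4 libraries. Peaks were also listed with 3 of 8 fibro-adipogenic, 2 of 6 endothelial, 4 of 7 leukocyte and 3 of 5 Schwann cell genes. Those sums were 392 to 1433, 133 to 256, 960 to 1523 and 114 to 253. Pdgfra, Cdh5 and Ptprc of the first 3 lists had no peak, whereas Col3a1 had 268 to 501, Pecam1 82 to 147 and Csf1r 34 to 60. Sox10 of the Schwann cell list had 81 to 171, and Pax7 had 274 to 356. Every list held genes with a peak and genes without one. The part of these other cell types in the results was not tested. Cd68 gave 840 to 1308 of the leukocyte sum. The 3 Pol II S2P peaks listed with Col1a1, a fibroblast collagen, gave 1093 in Ctrl replicate 1 and 16, 75 and 31 in the other libraries, and without Ctrl replicate 1 the fibro-adipogenic sums were 392 to 658. The 2 Pol II S2P peaks of Kmt5b itself summed to 24 and 62 in the Ctrl libraries against 48 and 22 in sKO, so the polymerase signal did not separate the genotypes there and served as no check of the labels. The autosomal H4K20me1 total was 13533657 and 18103713 for Ctrl, against 29655556 and 32238286 for sKO.

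The starts themselves are shown first, because the results below turn on how far the mark moved at each of them. The 3 members with the largest rise and the 2 with the smallest change are given as the 250 bases before the listed gene start, written 5′ to 3′ along the gene, from the RefSeq genome GRCm38.p6. Capitals mark each CG dinucleotide, the site of DNA methylation and the hallmark of CpG-rich promoters. The windows are chr6:136922181-136922430 on the minus strand for Erp27, chr11:69323730-69323979 on the plus strand for Trappc1, chr2:23067917-23068166 on the plus strand for Acbd5, chr7:103944187-103944436 on the plus strand for Olfr633 and chr13:120300142-120300391 on the plus strand for BC147527.
Erp27: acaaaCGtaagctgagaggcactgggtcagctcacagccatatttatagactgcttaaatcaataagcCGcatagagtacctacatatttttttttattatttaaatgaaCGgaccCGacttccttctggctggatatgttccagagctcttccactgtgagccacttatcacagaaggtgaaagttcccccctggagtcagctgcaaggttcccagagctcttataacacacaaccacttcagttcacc
Trappc1: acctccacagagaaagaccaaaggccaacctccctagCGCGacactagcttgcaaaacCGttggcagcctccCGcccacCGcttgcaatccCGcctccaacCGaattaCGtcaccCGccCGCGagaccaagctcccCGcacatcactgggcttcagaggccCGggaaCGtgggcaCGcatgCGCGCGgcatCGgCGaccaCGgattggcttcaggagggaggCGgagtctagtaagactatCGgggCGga
Acbd5: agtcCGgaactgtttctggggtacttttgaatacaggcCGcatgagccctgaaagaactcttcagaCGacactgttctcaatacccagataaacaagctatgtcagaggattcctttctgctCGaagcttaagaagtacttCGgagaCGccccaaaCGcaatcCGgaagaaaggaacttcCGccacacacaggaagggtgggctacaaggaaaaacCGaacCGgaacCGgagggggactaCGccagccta
Olfr633: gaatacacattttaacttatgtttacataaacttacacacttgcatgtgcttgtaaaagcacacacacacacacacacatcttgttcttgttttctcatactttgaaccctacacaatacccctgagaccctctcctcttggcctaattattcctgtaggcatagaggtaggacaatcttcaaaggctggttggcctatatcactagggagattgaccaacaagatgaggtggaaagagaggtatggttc
BC147527: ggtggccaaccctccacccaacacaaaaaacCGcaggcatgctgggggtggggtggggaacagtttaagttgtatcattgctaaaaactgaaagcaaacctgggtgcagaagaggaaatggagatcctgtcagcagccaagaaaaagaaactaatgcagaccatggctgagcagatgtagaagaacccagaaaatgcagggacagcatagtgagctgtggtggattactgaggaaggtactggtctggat

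The risers did not share one kind of promoter. Trappc1 had 24 CG dinucleotides in its window and Acbd5 had 13, whereas Erp27 had 4 and held the letters TATAAA on one strand. The starts with the smallest change held few: Olfr633 had 0 and BC147527 had 1. Lower in rank, Psmg3 and Ccdc103 among the risers had 10 and 24, and Epn1 and Tcl1b2 among the smallest changes had 21 and 2. Across all 957 starts the median was 10 CG dinucleotides and 57.2% GC, against 8 and 54.4% for the 20807 autosomal protein-coding starts of GENCODE M21. CpG-rich windows, with GC over 50% and a ratio of observed to expected CG over 0.6, made up 37.7% of the members and 38.0% of all starts. Motifs were searched on both strands. TATAAA stood in 8.15% of the members' windows and 11.6% of all, GGGCGG in 45.5% and 39.6%, CCAAT in 34.6% and 35.5%, CACGTG in 6.17% and 6.60%, and CAGCTG, the form of E-box that myogenic factors bind, in 14.7% and 12.1%. These are matches of letters and not sites shown to be bound.

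The peaks were broad and reached well beyond the promoter window. Their median length was 8200 bases, with quartiles of 5000 and 13600, and 938 of the 957 (98.0%) covered the listed start. The centre lay downstream of the start in 797 members (83.3%), by a median of 790 bases, and a median of 41.2% of the peak lay upstream of the start. Exons of the listed gene made up a median of 7.05% of the peak, so most of each peak was intron or flanking sequence. The gene lay on the plus strand in 490 members and on the minus strand in 467. In 110 members (11.5%) the peak held 2 or more protein-coding starts, in 88 of them on opposite strands, and in 41 the whole gene lay in the peak. Compared with the 23464 tested peaks that lay with a fraction of 0.5 or more in a protein-coding gene but farther than 2000 bases from its start (called peaks inside genes below), the members were richer in GC (median 47.7% against 44.04%) and in CpG (16.2 against 10.1 per kb), and their genes were shorter (median 29.8 against 113 kb).

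Among these called peaks, H4K20me1 in Ctrl cells was sparser at gene starts than inside genes, and in sKO cells it was not. The peaks are a union over libraries, and which library called each peak was not known here. Peaks called only where scores were high can enter with low Ctrl scores. The part of this in the levels, and in the changes given below, was not tested. The score, a spike-in-normalised coverage summed over the peak, is divided by peak length here wherever levels of peaks are compared. The median per kb over the members was 15.7 and 20.0 for Ctrl, against 48.5 and 53.03 for sKO. Over the peaks inside genes it was 19 and 26.1 for Ctrl, against 47.4 and 51.3 for sKO. The members thus stood at 0.825 and 0.767 of the level inside genes in Ctrl, and at 1.02 and 1.03 in sKO, with no overlap between the genotypes. The 557 tested peaks that met the same distance but had a fraction under 0.5 gave 16.1 and 21.7 against 48.1 and 52.7.

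**Figure D1:**
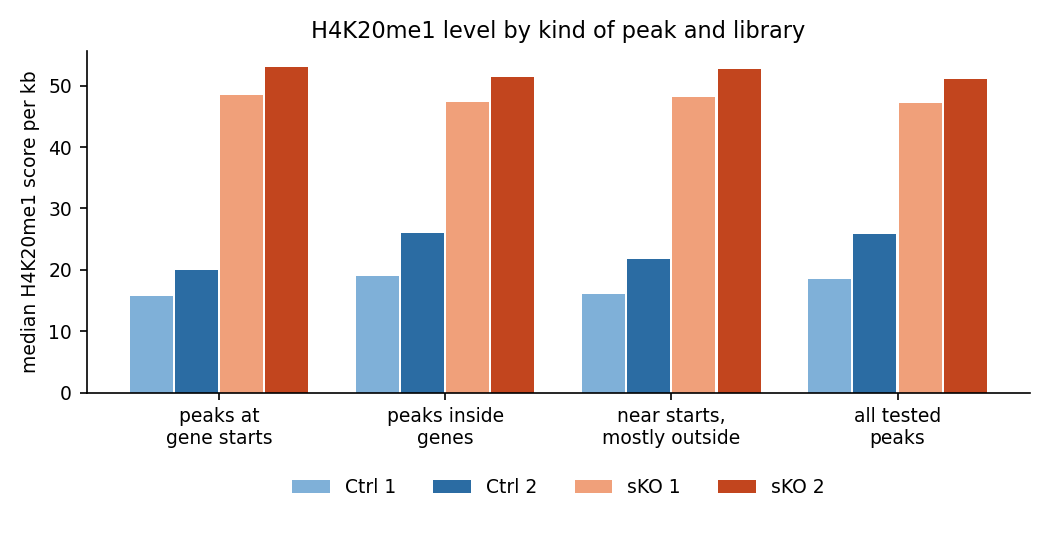
Median H4K20me1 score per kb (vertical axis, from 0) for the gene-start peaks, the peaks inside genes, the peaks near starts that lie mostly outside the gene, and all tested peaks, with 1 bar per library. The gene-start bars are the lowest of each Ctrl library (15.7 and 20.0) and stand slightly above those of peaks inside genes in sKO (48.5 and 53.03 against 47.4 and 51.3).

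The members also became more alike. In the Ctrl libraries the middle 50% of them ran from 11.97 to 19.3 and from 15.1 to 26.4 per kb, and in the sKO libraries from 44.1 to 54.0 and from 47.6 to 58.8. On the log2 scale the width of that range was 0.69 and 0.79 for Ctrl, against 0.29 and 0.30 for sKO. Inside genes it was 0.57 and 0.61, against 0.29 and 0.31, so the members were the more dispersed kind in both Ctrl libraries. In the 297 members of 12000 bases or more it was 0.55 and 0.67 for Ctrl, against 0.19 and 0.20 for sKO. Scores were lower in Ctrl, and the library that called each peak was not known. The part of either in the ranges was not tested.

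To ask how loss of Kmt5b moved the mark at single starts, each peak was tested with limma on log2(score + 1), and a change was called where the p, adjusted by the method of Benjamini and Hochberg, was under 0.1 and the log2 fold change exceeded 0.5 in size. On the deposited scale 924 of the 955 members were called higher in sKO and 0 lower. Over all tested peaks 36842 were called higher, a background of 90.1%, and 1 lower (0.00244%), so a call as such says little about a gene start. The higher Ctrl library lay below the lower sKO library in 934 members, against 93.9% of all peaks, and the reverse held in 0, against 0.0269%. The size of the rise differed more. The median log2 fold change of the members was 1.55, with quartiles of 1.14 and 1.92, whereas that of all tested peaks was 1.14, with quartiles of 0.83 and 1.49. In linear terms these medians are 2.929-fold and 2.2102-fold. Of the members, 714 (74.8%) had a log2 fold change above the median of all peaks, and 2 had a lower mean in sKO.

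Because nearly every peak moved up, the members were set against the other peaks of the same library. In each library the median over peaks of log2(score + 1), less that peak's Ctrl mean, was taken, and the value over all tested peaks was subtracted. The members gave 0.027 and -0.027 for Ctrl, against 0.41 and 0.40 for sKO. The difference of 0.40 compares with a pooled SD between replicates of 0.027. The same quantity against the peaks inside genes was 0.41 and against the peaks near starts that lie mostly outside the gene 0.13 (pooled SD 0.022 and 0.013). The members held 1.32% and 1.30% of the autosomal H4K20me1 score in Ctrl and 1.66% and 1.67% in sKO, a share 1.27 times as large. This share does not depend on how the libraries were scaled. With 2 libraries against 2 an exact permutation test cannot give a p under 0.3333, and none is given for these medians.

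When the 4 libraries were scaled to the same autosomal total, which removes a change common to all peaks, 493 of the 955 members (51.6%) were called higher and 11 lower. The backgrounds were 22.6% higher and 4.41% lower. The members' median log2 fold change was then 0.57 and that of all tested peaks 0.17. Of the peaks inside genes 20.9% were called higher and 4.61% lower on this scale, and of the peaks near starts that lie mostly outside the gene 44.7% and 2.87%.

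The excess faded with distance into the gene. Among peaks with a fraction of 0.5 or more in their protein-coding gene, the median log2 fold change was 1.53, 1.58, 1.49 and 1.58 in the 4 steps of 500 bases up to 2000 bases from the start. It was 1.46 between 2000 and 3000 bases, 1.31 between 3000 and 5000, 1.17 between 5000 and 10000 and 1.05 between 10000 and 20000. Beyond that it was 1.09 up to 50000 bases and 1.15 farther out. The Ctrl level per kb ran the other way, from 17.6 (the median over peaks of the mean of both libraries) within 500 bases to 24.4 between 10000 and 20000 bases and 22.2 beyond 50000, whereas the sKO level stayed between 48.4 and 51.4 in every step. The limit of 2000 bases thus falls on a slope and not on a step.

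**Figure D2:**
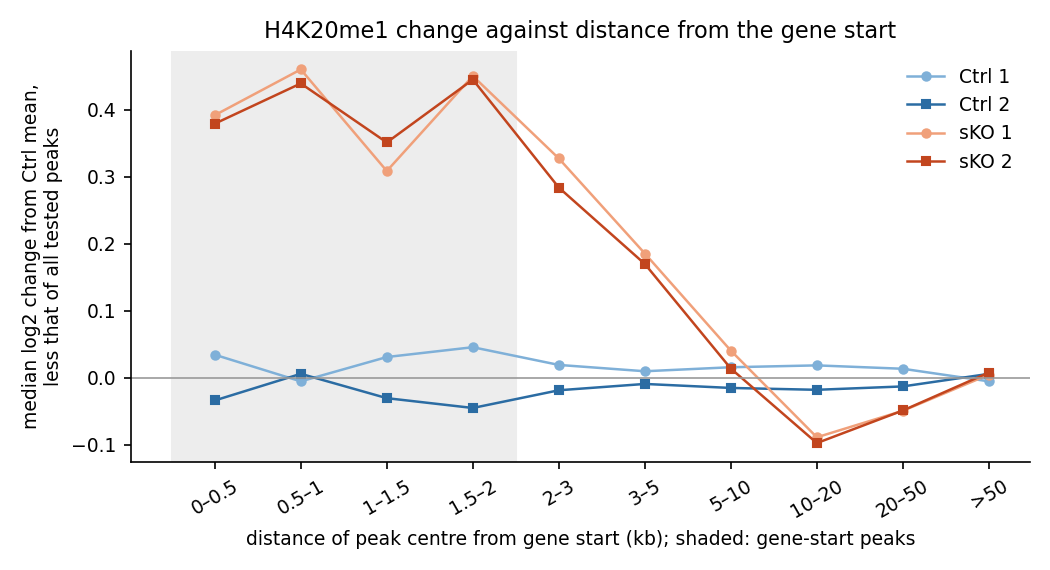
Median log2 change of H4K20me1 relative to Ctrl, after subtracting the median of all tested peaks (vertical axis), against the distance of the peak centre from the gene start in kb (horizontal axis, unequal steps), with 1 line per library and the gene-start peaks shaded. Both sKO lines lie between 0.31 and 0.46 within 2 kb, fall to -0.089 and -0.098 at 10 to 20 kb and return to about 0 beyond 50 kb, while the Ctrl lines stay within 0.0454 of 0. The 2 Ctrl lines mirror each other around 0 by construction.

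The same contrast was seen inside single genes, where gene identity is held fixed. In 564 genes both a start peak and at least 1 of 2003 other peaks farther into the gene were present. The score per base of the start peak, divided by that of the other peaks of the gene together, had a median log2 ratio of -0.19 and -0.23 for Ctrl, against 0.044 and 0.061 for sKO (difference 0.26, pooled SD 0.024). The start was thus at 0.864 of the rest of the gene in Ctrl and at 1.04 in sKO. Both sKO ratios exceeded both Ctrl ratios in 274 genes (48.6%) and lay below both in 87 (15.4%). In the 3878 genes without a start peak that had 2 or more peaks, the peak nearest the start (median distance 11044 bases) against the rest gave 28.8% and 28.5%, and its median log2 ratio moved by 0.014.

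**Figure D3:**
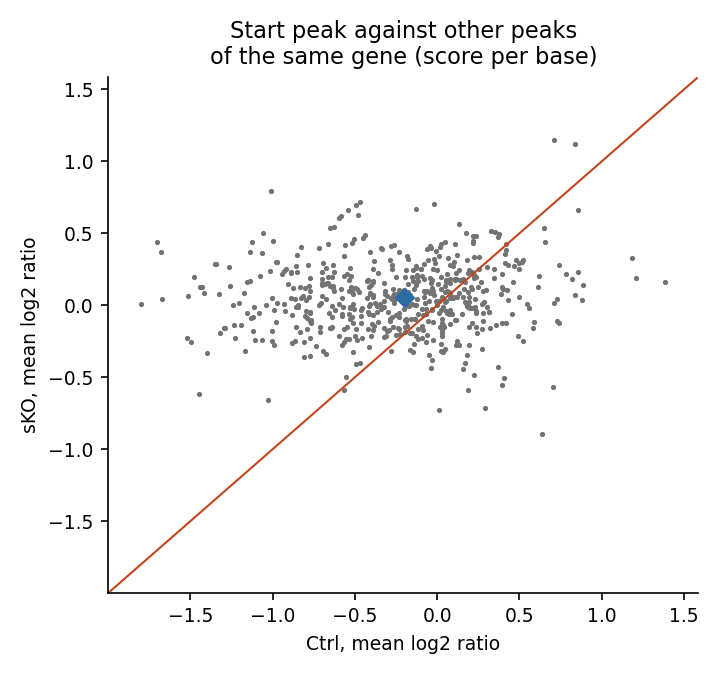
Each of the 564 points is a gene: the mean log2 ratio of H4K20me1 per base in its start peak to that in its other peaks, in Ctrl (horizontal axis) and sKO (vertical axis), with the line of equality and a diamond at the medians. Points spread widely along the Ctrl axis and narrowly along the sKO axis, and more of them lie above the line than below it.

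Acbd5, a peroxisomal membrane protein that binds acyl-CoA, is an example among the large risers: its log2 ratio of start to rest was -1.11 and -2.30 in Ctrl and 0.36 and 0.52 in sKO. Triobp, an actin-binding protein, went from -0.58 and -0.36 to 0.87 and 0.57, and Rnaseh1, which degrades the RNA strand of RNA-DNA hybrids, from -1.87 and -0.94 to -0.29 and -0.37. The opposite was seen in Il31, a cytokine gene, at 1.15 and 1.27 in Ctrl and 0.13 and 0.25 in sKO. The Il31 peak lies inside the gene and does not cover the listed start. Adamts8, a secreted metalloprotease, also went down, at 1.17 and 1.202 in Ctrl against -0.079 and 0.74 in sKO. In Myo3b, a myosin of sensory cells with 14 other peaks, the ratio was -0.057 and -0.0027 in Ctrl and 0.078 and -0.14 in sKO, with overlapping groups. In Acbd5, Rnaseh1, Il31 and Adamts8 the rest of the gene was only 1 peak, and in Triobp 2. The start peak of Acbd5 had low Ctrl scores, of 23 and 13.

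The largest rises started from scores close to the floor in Ctrl. Erp27 (ENSMUSG00000030219), a chaperone of the endoplasmic reticulum without a catalytic site of its own, had a peak on chromosome 6 from 136918800 to 136925399 over its start and 51.2% in the gene. Its score was 36 and 22 for Ctrl, against 275 and 349 for sKO. The log2 fold change was 3.41 ± 0.45 (SE), with an adjusted p of 6.70e-12 by limma. Trappc1 (ENSMUSG00000049299), a subunit of the vesicle-tethering TRAPP complexes, had a peak on chromosome 11 from 69323800 to 69326399. Its scores of 22 and 7 for Ctrl, against 150 and 135 for sKO, gave 3.40 ± 0.72 (SE, limma adjusted p 1.21e-05). Each Ctrl pair lay far below its sKO pair. Acbd5 (chromosome 2, 23067600 to 23069999) went from 23 and 13 to 156 and 188. Psmg3, a chaperone of proteasome assembly (chromosome 5, 139825200 to 139827199), went from 5 and 25 to 110 and 121. Ccdc103, which attaches dynein arms in motile cilia (chromosome 11, 102881000 to 102882799), went from 7 and 23 to 139 and 118. These 3 had log2 fold changes of 3.23, 3.22 and 3.22, and all 5 were also called on equal totals, with values from 2.28 to 2.46. Their size depended on single Ctrl libraries. Without Ctrl replicate 1 the log2 fold change was 4.16 in Trappc1, 2.16 in Psmg3 and 2.43 in Ccdc103, and without Ctrl replicate 2 it was 2.64, 4.28 and 4.01. For Erp27 and Acbd5 it stayed between 2.84 and 3.76 with any 1 library left out. Of the 5 peaks, 4 were 2600 bases or shorter, and those of Erp27, Trappc1 and Psmg3 held 2 protein-coding starts, so their scores cannot be assigned to one gene.

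The 5 smallest changes included an odorant receptor gene, a cytokine gene and an endocytic adaptor. Olfr633 (ENSMUSG00000073937), an odorant receptor gene, had a peak on chromosome 7 from 103942800 to 103947199 with scores of 70 and 119 for Ctrl, against 58 and 82 for sKO. Its log2 fold change of -0.40 ± 0.50 (SE) had a limma adjusted p of 0.431, and the groups overlapped. BC147527 (chromosome 13, 120300200 to 120303999) had 71 and 136 against 87 and 93, and Tcl1b2 (chromosome 12, 105145800 to 105147599) had 39 and 82 against 62 and 73. Il31 (chromosome 5, 123487800 to 123489199) had 53 and 97 against 65 and 96. None of these was called, and in each the replicates of one genotype differed by more than the genotypes. Epn1, the endocytic adaptor, had the longest peak of the 5. This peak of 38200 bases (chromosome 7, 5062800 to 5100999) also had the highest scores of the 5, at 1501 and 1926 for Ctrl, against 1903 and 1994 for sKO (log2 fold change 0.20 ± 0.27 SE, limma adjusted p 0.483). On equal totals Olfr633, BC147527 and Epn1 were called lower, at -1.37, -1.10 and -0.79. Olfr633 and Tcl1b2 belong to families of similar genes, where keeping unique alignments only can lower the score unevenly.

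**Figure D4:**
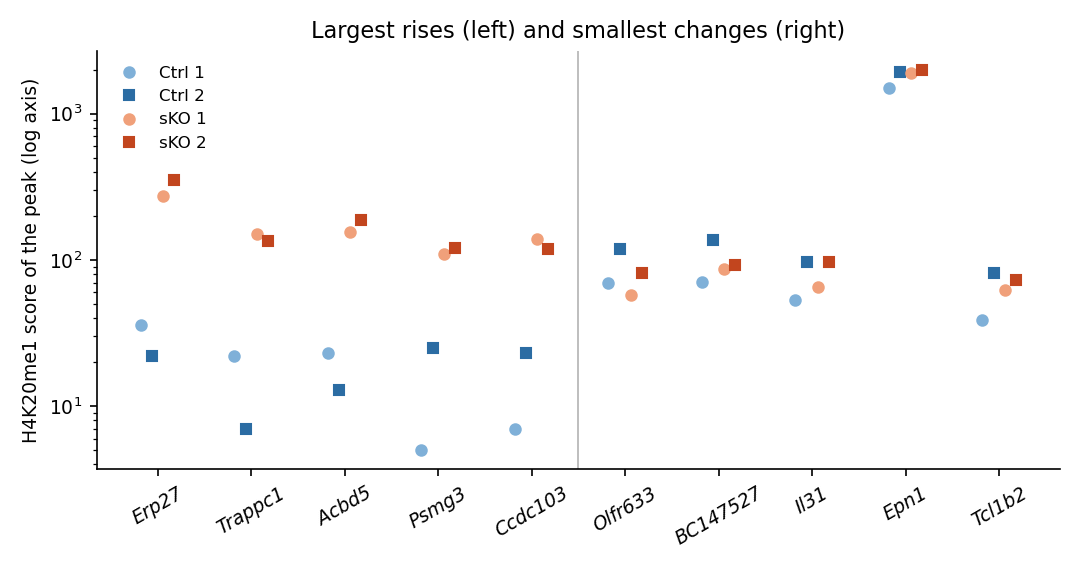
H4K20me1 score of the peak in each library (vertical log axis) for the 5 members with the largest rise, left of the line, and the 5 with the smallest change, right of it. On the left the Ctrl points lie between 5 and 36 and the sKO points between 110 and 349; on the right the colours interleave, with Epn1 near 2000 and the others between 39 and 136.

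The 5 members with the highest mean score per kb were 9430038I01Rik (80.8 per kb over 1600 bases), Rab20 (79.7 over 800), Emc10 (59.5 over 1000), Il31 (55.5 over 1400) and Triobp (53.3 over 1200). This mean rests more on the higher sKO scores: per kb, Triobp had 17.5 and 27.5 for Ctrl against 92.5 and 75.8 for sKO, and Emc10 26 and 45 against 106 and 61, both Ctrl pairs below the 39.3 and 50.4 of the much longer Epn1 peak. Rab20, a small GTPase of phagosomes and endosomes on chromosome 8 (11476600 to 11477399), had 25 and 29 for Ctrl, against 90 and 111 for sKO. Its log2 fold change was 1.85 ± 0.64 (SE, limma adjusted p 0.00540). The peaks of Rab20 and Il31 do not cover the listed start. Emc10, a subunit of the complex that inserts membrane proteins into the endoplasmic reticulum, had 26 and 45 against 106 and 61, a rise of 1.21 ± 0.64 with an adjusted p of 0.0654. On equal totals none of the 5 was called.

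Among the properties correlated here, which did not include the Ctrl level, peak length was the one most related to the size of the change. Spearman's rank correlation between log2 fold change and a property, across the 955 members, was -0.39 for peak length, 0.27 for CpG per kb of the peak, 0.12 for its GC, 0.072 for the CG count of the 250 bases before the start, 0.33 for the number of Pol II S2P peaks in it, -0.076 for gene length and 0.0042 for distance to the start. These are descriptions across peaks of the same libraries and carry no p. The 155 members of up to 4000 bases had a median log2 fold change of 1.92 and the 126 of more than 20000 bases one of 1.15. In each of 5 length classes the members' median exceeded that of peaks inside genes, by 0.77 in the shortest and 0.16 in the longest. In classes of GC, the excess was 0.37 below 40% and 0.53 above 52%, and in classes of CpG per kb it was 0.10 at up to 8 and 0.52 above 24. Where peaks were first matched on Ctrl replicate 1 score per kb and the change was then measured from Ctrl replicate 2 alone, the excess was 0.19, 0.27, 0.15 and 0.076 from the lowest to the highest of 4 classes of Ctrl level. The members' larger rise was thus smaller among peaks of like Ctrl level, and remained positive in every class. From the lowest to the highest of these classes the members' own median change fell from 1.94 to 0.78, beside 1.92 to 1.15 across the length classes.

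Members that held elongating polymerase gained more. A Pol II S2P peak lay with at least 50% of its length inside 38.5% of the tested members (368), against 26.8% of the peaks inside genes. The 587 members without one had a median score per kb of 16.7 and 22.0 for Ctrl, against 47.2 and 51.7 for sKO, and a median log2 fold change of 1.38. The 368 with one or more had 13.5 and 16.9, against 50.6 and 54.7, and a median of 1.82. Members with Pol II S2P were thus the lower kind in both Ctrl libraries and the higher kind in both sKO libraries. With exactly 1 Pol II S2P peak the median was 1.82 (199 members) and with 2 or more also 1.82 (169). Inside genes the corresponding medians were 1.12, 1.33 and 1.04, so there the largest number of polymerase peaks went with the smallest change, in peaks of a median of 20000 bases. On equal totals 70.7% of the members with Pol II S2P were called higher, and 39.7% of those without. The order was the same for peaks inside genes, at 31.2% with Pol II S2P and 17.2% without. There the share was 35.8% with exactly 1 Pol II S2P peak and 26.3% with 2 or more.

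**Figure D5:**
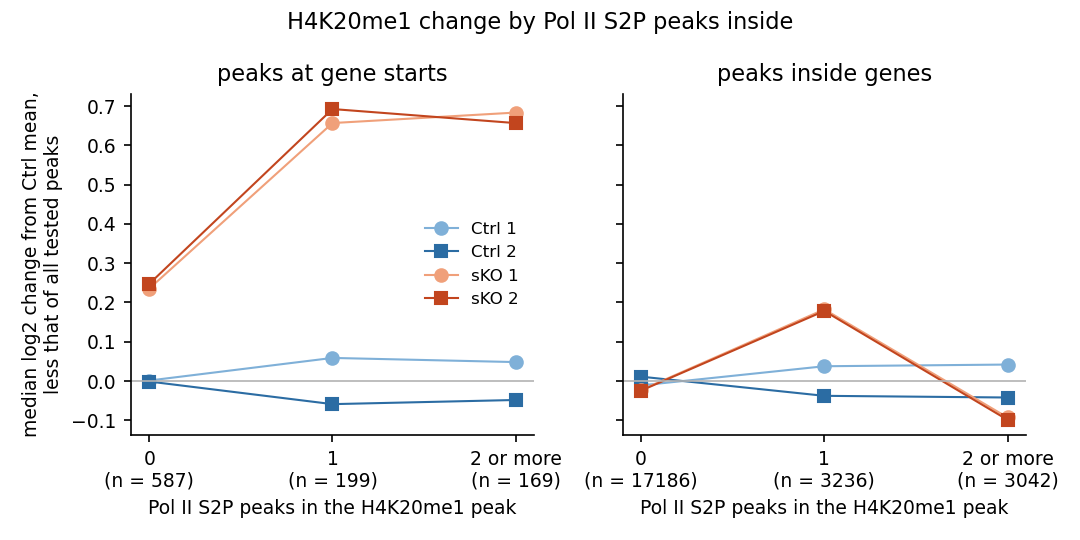
Median log2 change of H4K20me1 relative to Ctrl, after subtracting the median of all tested peaks (vertical axis), by the number of Pol II S2P peaks inside the H4K20me1 peak (horizontal axis), for gene-start peaks (left) and peaks inside genes (right), with 1 line per library. At gene starts the sKO values are 0.24 and 0.25 without Pol II S2P and 0.66 to 0.69 with it, while inside genes they stay between -0.099 and 0.18.

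The members with Pol II S2P were shorter, with a median of 6800 against 8800 bases, and richer in GC, at 49.7% against 46.6%. Within each of 5 length classes the members with Pol II S2P had the larger median rise, 2.13 against 1.65 in the shortest and 1.30 against 1.09 in the longest. The split was also present on either side of promoter CpG content. Among CpG-rich starts the median was 1.74 with Pol II S2P (167 members) and 1.44 without (194), and among the others 1.88 (201) and 1.35 (393). CpG-rich and other starts as such differed little, at 1.58 and 1.51. Starts on both strands, as at bidirectional promoters, gave 1.73 in 88 members, of which 63.6% held Pol II S2P. Peaks centred upstream of the start gave 1.31 (160 members) and those centred downstream 1.59 (795). The 17 members that did not cover the listed start gave 1.52. The 346 members of genes under 20000 bases gave 1.61, and the 207 of the longest genes 1.505. By chromosome the members' median exceeded that of all tested peaks on each of the 19 autosomes, by 0.23 on chromosome 18 to 0.62 on chromosome 14.

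No change of the polymerase signal was called at these starts. The members held 719 Pol II S2P peaks, of which 254 (35.3%) were centred within 500 bases of the start, and 384 passed the filter. With limma 0 were called higher and 0 lower, against backgrounds of 0.0447% and 0.00447% over 22353 tested peaks. Before adjustment 9 of the 384 had a limma p under 0.05 with higher values in sKO and 0 with lower. The share over all tested peaks was not taken for this count, and no trend is read from it. The lower sKO library exceeded the higher Ctrl library in 44 of the 384 (11.5%), and the reverse held in 21 (5.47%), where all tested peaks gave 16.7% and 6.84%. The median log2 fold change was 0.065, and 0.11 over all tested peaks. Summed over the 719 peaks the score was 50365 and 66386 for Ctrl, against 72487 and 51641 for sKO, so each genotype had a high and a low library. As a share of the autosomal Pol II S2P score this was 1.562% and 1.58% for Ctrl, against 1.499% and 1.52% for sKO, with a pooled SD of 0.013. On equal totals 6 were called higher and 6 lower, with backgrounds of 2.51% and 1.19%.

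The 5 members with the most Pol II S2P, summed over all such peaks inside the member, rose less than most. Foxred2, an oxidoreductase of the endoplasmic reticulum (chromosome 15, 77940600 to 77970799), had Pol II S2P scores of 921 and 1158 for Ctrl, against 1284 and 824 for sKO. Its H4K20me1 was 740 and 1119 against 1361 and 1506 (log2 fold change 0.65 ± 0.27 SE, limma adjusted p 0.0192). Pnpla2, the triglyceride lipase ATGL (chromosome 7, 141451200 to 141460199), had 902 and 994 against 1058 and 879 for Pol II S2P, and 201 and 256 against 488 and 535 for H4K20me1 (1.17 ± 0.29 SE, limma adjusted p 0.000167). Both members had overlapping polymerase and separate H4K20me1 values. Ttyh2, an anion channel family gene, rose by 0.70 in H4K20me1, Amotl2, an angiomotin of the Hippo pathway, by 1.30, and Slc3a1, a subunit of an amino acid transporter, by 0.88. Their Pol II S2P scores ranged from 751 to 1025 in Ttyh2, from 705 to 1019 in Amotl2 and from 481 to 1076 in Slc3a1, and the genotypes overlapped in all 3. The 5 peaks were 8600 to 30200 bases long and lay 45.3% to 55.6% in the listed gene. Their scores need not belong to that gene alone. Those of Foxred2, Amotl2 and Slc3a1 exceeded 20000 bases, a length class in which the members' median rise was 1.15.

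Of 184 genes in the lists given by symbol, 7 were members (3.804%), near the 4.60% that 957 members make of the 20807 autosomal protein-coding starts. No member was on the lists of H4K20 methylation enzymes (4 genes) or satellite cell and myogenic transcription factors (20). The lists of immediate early transcription factors (19), G1 and S phase control (29) and Pol II elongation factors (23) held none either. The same was true of the cytosolic ribosomal proteins and the replication-dependent histones. Genes of these kinds outside the lists were not looked for. Notch1, the receptor that keeps satellite cells quiescent, was the 1 member of the Notch list. Its peak (chromosome 2, 26510200 to 26519199) had 86 and 120 for Ctrl, against 432 and 557 for sKO (log2 fold change 2.26 ± 0.32 SE, limma adjusted p 1.07e-10), with no Pol II S2P peak inside. Vcam1, an adhesion molecule of satellite cells, had 24 and 56 for Ctrl, against 299 and 280 for sKO (2.94 ± 0.43 SE, limma adjusted p 3.95e-10). Its peak lies on chromosome 3 from 116124800 to 116130599 and holds 1 Pol II S2P peak, with 26 and 35 against 29 and 13. Rnaseh1 rose from 44 and 61 to 237 and 238 (2.17 ± 0.41 SE, limma adjusted p 1.22e-06), and Sesn2, a stress-induced p53 target, from 95 and 89 to 271 and 239 (1.46 ± 0.36 SE, limma adjusted p 0.000137). In each of the 4 genes the genotypes did not overlap, and all but Sesn2 were also called on equal totals.

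Start peaks were also present at 3 markers of other cell types. Col1a1, the main collagen of fibroblasts, had 342 and 419 for Ctrl, against 989 and 1291 for sKO, Tek, an endothelial receptor, 60 and 81 against 223 and 322, and Cd79a, of the B cell receptor, 98 and 94 against 305 and 340. Their log2 fold changes were 1.58, 1.93 and 1.74, and all 3 were called higher on both scales. The Col1a1 member held 1 Pol II S2P peak, with 44 and 75 for Ctrl, against 72 and 39 for sKO. It was not among the peaks listed with Col1a1, which summed to 16 in Ctrl replicate 2 and 31 in sKO replicate 2. The 4 peaks inside the Cd79a member summed to between 38 and 193, against 19 to 71 for the 2 listed with Cd79a. These scores thus do not stand for polymerase of the marker genes alone.

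The median change was above that of all members in the zinc finger list and below it in the receptor list, with single genes of each on either side, and the difference was not tested. The 8 Zfp zinc finger genes among the members, mostly DNA-binding repressors, had a median log2 fold change of 1.90, from 1.32 in Zfp398 to 2.51. All 8 were called higher on the deposited scale, against 96.8% of all members and 90.1% of all peaks, and 7 on equal totals, against 51.6% and 22.6%. Zfp607b, the example with the largest rise of the 4 named, had 334 and 421 for Ctrl, against 1305 and 1564 for sKO, and Zfp658 had 163 and 181 against 596 and 560. The 13 olfactory and vomeronasal receptor genes, which are best known from sensory neurons, had a median of 0.85, from -0.40 to 2.12. Of these 9 were called higher, and on equal totals 2 were called higher and 2 lower, with a median of -0.12. Olfr221 had 213 and 220 against 496 and 501, and Olfr1415 had 242 and 260 against 384 and 408. These genes belong to large families with similar copies, so unequal unique alignment can enter each value.

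Other families, grouped by symbol after the members had been seen, held more genes. All 32 tested solute carrier members (Slc), all 9 collagens, all 7 ADAMTS and ADAMTS-like genes and all 4 genes named Rab were called higher, as were 96.8% of all members and 90.1% of all tested peaks. Their medians were 1.40, 1.47, 1.15 and 1.78. On equal totals 14 of the solute carriers, 4 of the collagens, 3 of the ADAMTS genes and 2 of the Rab genes were called higher and none of them lower, shares near the 51.6% of all members. These counts do not set the families apart. Col6a5, a collagen VI chain, had 1204 and 1508 against 1968 and 2404. Among 5 tripartite motif genes 4 were called, and Trim67, which had the longest peak of all members at 47600 bases, was not because its change was under 0.5, with 1449 and 1862 against 2179 and 2389 (0.47 ± 0.27 SE, limma adjusted p 0.0928). On equal totals it was called lower (-0.51).

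At the edges of the rule, single peaks left out rose more than the members beside them. The shortest peak left out for its length, at Dgkz (51600 bases), had 993 and 1280 for Ctrl, against 2248 and 2825 for sKO, a log2 fold change of 1.16 beside the 0.47 of Trim67 at 47600 bases. The 4 longest members had a median of 0.65, and the 17 peaks left out for their length 0.98. The member farthest from its start, at Phf14 (1991 bases), changed by 1.30, and the nearest peak left out, at Osbpl3 (2001 bases), by 1.75. These 2 peaks were 25200 and 4400 bases long. As groups the order at this edge was the reverse. The 190 members 1500 to 2000 bases from the start had a median of 1.58, and the 445 peaks left out at 2000 to 3000 bases 1.46. The 367 members with a fraction of 0.5 had a median of 1.38, and the 269 tested peaks left out with a fraction of 0.4 had 1.48. The fraction is deposited to 1 decimal, and in 171 of the 957 members the overlap computed from the coordinates was under 0.5.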

How the data were processed

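CUT&RUN libraries for H4K20me1 and Pol II S2P were made from Ctrl and sKO muscle stem cells, with 2 per genotype and antibody. The 2 IgG libraries were not analysed here. Per the study's methods, the authors aligned reads to mm10 (GRCm38) with STAR 2.7.3a, keeping unique alignments, removed duplicates with Picard 2.21.7 and normalised coverage to S2 spike-in DNA. The submitters' notes also name FastQC 0.11.8, Trimmomatic 0.39, SICER 0.0.41 and MACS2 2.1.1. The deposited values are a score per union peak, a whole number standing for normalised coverage and not divided by length. The deposited tables also hold the fraction of each peak in its gene, rounded to 1 decimal. The library in which a peak was called, the spike-in reads and the read depth were not used here, so counting error is unknown, and any fault in the scale between libraries enters every difference on the deposited scale.

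Scores were compared with limma 3.58.1 (trend) in R 4.3.3 on log2(score + 1), where fold changes of low scores are understated, over autosomal peaks with a mean over 50, and p-values were adjusted over all of them. Calls followed the study's limits (adjusted p under 0.1, log2 fold change over 0.5 in size). The procedure was tested on simulated data. Coordinates are as deposited. Gene models came from GENCODE M21 and sequence from GRCm38.p6, read with pysam 0.24.0. Summaries used pandas 2.3.3, numpy 2.4.6 and scipy 1.17.1 under Python 3.11.15. Genes named were the 5 members with the highest score per kb, the 5 called members with the largest and the 5 with the smallest log2 fold change, the 5 with the highest Pol II S2P, up to 4 per gene list by mean score, and those at the thresholds. Members listed with no symbol were passed over. Families by symbol, their examples, and examples of single genes with a ratio of start to rest were chosen after values were seen. The set of peaks and the gene lists were chosen with earlier results of these data known. Alternatives were another pseudocount (16), no filter on low values (for Pol II S2P also a mean over 20, and an overlap of any length), equal totals, quantile normalisation, a replicate block, each library left out in turn and other limits of distance and overlap.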

Additional observations from a re-analysis of the deposited data

Results flagged for a closer look

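The X chromosome was left out of all tests, following the study. It held 20 peaks that met the remaining conditions of a gene-start peak. Their median scores were 288 and 388 for Ctrl, against 517 and 561 for sKO, and the genotypes did not overlap, with sKO higher, in 13 of them. The share of such peaks over all of the X was not taken. The median log2 change was 0.45, close to the 0.39 of all 3917 peaks of the X and below the 1.55 of the autosomal gene starts. These peaks were noted because they carry a signal outside the comparisons; no test was run on them.

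A further 17 autosomal peaks met every condition but were 50000 bases or longer. Their median scores were 1648 and 2177 for Ctrl, against 3586 and 3675 for sKO, with a median log2 change of 0.98. In all 17 the genotypes did not overlap, with sKO higher, as in 93.9% of all tested autosomal peaks. They too lie outside the comparisons.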

How the results depend on the processing

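Calls of the members rested on the scale between libraries. Against 924 higher and 0 lower on the deposited scale, equal totals gave 493 and 11, and quantile normalisation 312 and 50. Over all tested peaks 90.1% were called higher on the deposited scale, and 22.6% higher and 4.41% lower on equal totals. No such share was taken for the other settings, so their counts are not read as results about gene starts. The median change of the members fell from 1.55 to 0.57 on equal totals and 0.33 with quantile normalisation. By construction, either scaling takes out what all peaks share. The excess of the members over all tested peaks, 0.41, kept its direction: it was 0.35 with a pseudocount of 16, 0.34 with quantile normalisation, 0.45 with the fraction computed from coordinates and 0.38 without members holding a second gene start (both chosen after seeing the data). Limiting the distance to 1000 bases left 525 called higher, by construction of fewer members.

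Leaving out 1 library gave the members a median change of 1.37 to 1.72 and an excess over all tested peaks of 0.35 to 0.45. This leaves a lone library in 1 genotype, so calls are not given for these fits. For Pol II S2P peaks in members, equal totals gave 6 higher and 6 lower, and quantile normalisation 4 and 4. Its median change ran from -0.15 to 0.31 when 1 library was left out. The replicate block, used although the numbers pair nothing in the labels and deviations of same-numbered libraries correlated at 0.0345 for H4K20me1 and -0.0445 for Pol II S2P, gave 924 and 0 for H4K20me1 and 0 and 0 for Pol II S2P. Of the 34 genes named by rule it ended the call of Emc10 and changed no other.

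Single genes changed sign as follows. On equal totals Il31 was at -0.83, Epn1 at -0.79, Tcl1b2 at -0.72, Foxred2 at -0.33, Olfr1415 at -0.32, Ttyh2 at -0.28 and Slc3a1 at -0.11. Under quantile normalisation Il31 was at -1.31, Tcl1b2 at -1.23, Epn1 at -0.66, Olfr1415 at -0.55, Ttyh2 at -0.51, Foxred2 at -0.30, 9430038I01Rik at -0.29, Emc10 at -0.29, Slc3a1 at -0.22, Pnpla2 at -0.027 and Olfr524 at -0.015. Without Ctrl replicate 1, Il31 was at -0.29 and Tcl1b2 at -0.28. Without sKO replicate 2, Il31 was at -0.14, and without Ctrl replicate 2, BC147527 was at 0.34. With 1 library left out, BC147527 ranged from -0.59 to 0.34 and Tcl1b2 from -0.28 to 0.77. Of all values for single genes under these alternatives, 237 kept their direction and their side of the threshold, 36 lost a call, 6 gained one and 22 changed sign.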
